A study of Homo sapiens with 6 samples.

Results

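The 10 genes described here had been named as targets of miR-204 in earlier work. They were followed in UM-SCC1 cells: RAB22A, M6PR, EZR, SIRT1, TCF12, MEIS2, HMGA2, CREB5, SOX4 and FOXC1. They were taken by gene name from a table of 14959 genes, and 9 of the 10 have values; CREB5 was not analysed here. UM-SCC1 is an established cell line from a human squamous cell carcinoma of the head and neck. The study counts FOXC1 and SOX4 among the targets already identified in this tumour type. Cells received either miR-204-5p mimics (3 libraries) or control mimics (3 libraries), called mimic and control libraries below, and RNA was taken 48 h after transfection, with no other genotype, drug or time point among the samples used here. The labels number the 3 libraries of a group as replicates. Mimics are synthetic double-stranded RNAs that stand in for the mature miRNA. The level of the mature miRNA was not measured in these libraries.

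miR-204-5p guides the Argonaute silencing complex to mRNAs whose 3'UTR pairs with its seed, bases 2 to 8 of the miRNA. Pairing usually lowers the stability and translation of the mRNA, so part of the effect can be read as a lower mRNA level. miR-204 lies in an intron of TRPM3 and is known from the eye, the kidney and several carcinomas, and miR-211-5p has the same seed. The mature sequences, from RefSeq on GRCh38.p14, are shown with the seed in capitals because every match described here is read from it.
hsa-miR-204-5p: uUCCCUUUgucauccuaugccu
hsa-miR-211-5p: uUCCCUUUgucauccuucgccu

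The letters searched on the transcript strand were AAAGGGAA for an 8mer (the full seed and an A facing base 1 of the miRNA), AAAGGGA for a 7mer-m8 and AAGGGAA for a 7mer-A1, each site counted once in its longest class. The longest 3'UTR of protein-coding transcripts in GENCODE 29 (GRCh38) was used. All 10 genes held at least 1 of these matches there, against 27.1% of the 14664 genes of the table with such a 3'UTR. An 8mer was present in 9 of the 10, against 8.60% of the 14664, and 8 of the 10 held 2 or more matches, against 8.18%. The 3'UTRs of the 10 genes were also long, with a median of 2815 bases and a range from 1173 (EZR) to 7804 (RAB22A), while the median of the 14664 genes was 1252, and a longer 3'UTR holds more matches to any short sequence. The genes had been reported as targets already, so the matches are a description and not a test.

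Together with the 3'UTR of the transcript that the table lists for HMGA2, the 10 genes held 28 sites: 14 8mers, 5 of class 7mer-m8 and 9 of class 7mer-A1. A part of these sites is shown as 22 bases of transcript, 5′ to 3′, whose last base faces base 1 of the miRNA. None of CREB5 is among them. Capitals mark the match.
RAB22A site 1, 7mer-m8, chr20:58359904-58359925, plus strand: aatctctagtgtacAAAGGGAc
RAB22A site 2, 8mer, chr20:58360017-58360038, plus strand: tatgtaacatttgtAAAGGGAA
RAB22A site 4, 8mer, chr20:58362930-58362951, plus strand: attcttaaatatctAAAGGGAA
M6PR site 1, 8mer, chr12:8941028-8941049, minus strand: acaggggttccagaAAAGGGAA
M6PR site 2, 8mer, chr12:8940862-8940883, minus strand: tttcaatcttctagAAAGGGAA
EZR site 1, 8mer, chr6:158766188-158766209, minus strand: aacattagttttaaAAAGGGAA
SIRT1 site 1, 8mer, chr10:67916963-67916984, plus strand: tgttaaattaatgtAAAGGGAA
TCF12 site 1, 8mer, chr15:57286531-57286552, plus strand: taaggtctacatatAAAGGGAA
MEIS2 site 1, 7mer-A1, chr15:36892163-36892184, minus strand: catgcccaatagtatAAGGGAA
MEIS2 site 2, 7mer-A1, chr15:36892153-36892174, minus strand: agtataagggaactcAAGGGAA
HMGA2 site 6, 8mer, chr12:65963943-65963964, plus strand: tgttcatttttcaaAAAGGGAA
SOX4 site 1, 8mer, chr6:21596044-21596065, plus strand: agagtttaaagagaAAAGGGAA
FOXC1 site 1, 8mer, chr6:1612712-1612733, plus strand: ttttctcattataaAAAGGGAA

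Outside the seed, pairing was counted only at 4 bases of the miRNA, without a comparison over other genes. At bases 13 to 16 of the miRNA, read without gaps, 9 of the 28 sites had no Watson-Crick match, 12 had 1, 6 had 2 and 1 (MEIS2 site 2) had 3. The 30 bases on each side of the sites were 43.3% to 78.3% A or T, with a median of 68.3%, and the median over the 5789 sites of all genes was 58.3% (quartiles 48.3% and 66.7%). The lowest share belonged to M6PR site 1.

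**Figure D1:**
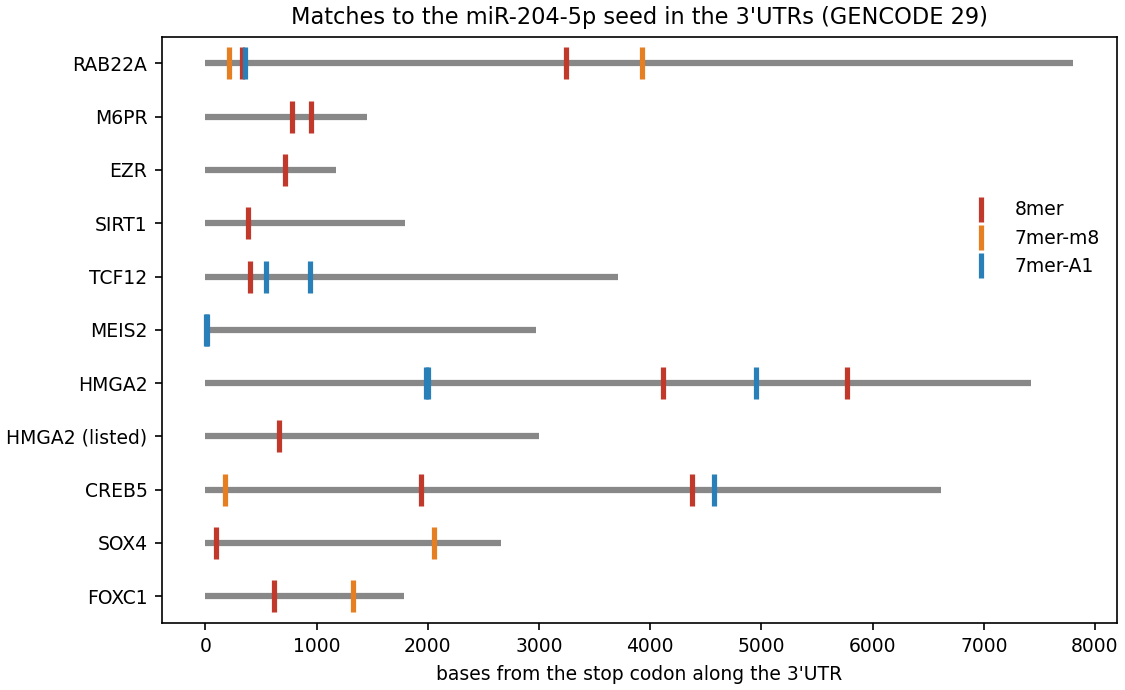
Matches to the miR-204-5p seed along the 3'UTRs of the 10 genes, in bases from the stop codon. Grey bars show, for each gene, its longest annotated 3'UTR, with a second bar for the transcript listed for HMGA2, and ticks are sites coloured by class. The 2 sites of MEIS2 lie at bases 4 and 14, right after the stop codon, while those of HMGA2 lie 665 bases or more from it.

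The values are FPKM, fragments per kilobase of transcript scaled to the mapped fragments of the library, which are comparable between genes. The table gives no counts. From the smallest steps among low values, a rough depth of 1.31e7 to 1.64e7 fragments per library was inferred, or 2.62e7 to 3.29e7 if the smaller steps that also occur are whole fragments. The 2 groups overlapped in this depth. Spearman correlations across genes were 0.9899 to 0.9908 between libraries of 1 group and 0.973 to 0.976 between groups. All 7 squamous epithelial markers examined were present in every library, with a summed level of 512 to 614 FPKM with miR-204-5p mimics and 696 to 726 FPKM with control mimics. The markers did not move together: KRT5, KRT14, TP63 and EPCAM had lower values in each mimic library than in any control, KRT17 overlapped, and CDH1 (36.0 to 37.9 against 27.4 to 28.9 FPKM) and KRT6A (2.34 to 3.36 against 0.970 to 1.67 FPKM) had higher ones. The leukocyte markers PTPRC and CD3E and the endothelial markers PECAM1 and CDH5 were below 1 FPKM in every library, while CD68 (8.68 to 11.7 FPKM) and the fibroblast marker COL1A1 (8.04 to 10.5 FPKM) were present in both groups. COL3A1 and DCN, the other fibroblast markers looked for, had no values. The part of the lower epithelial sum in the results was not tested.

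With control mimics, 8 of the 9 genes had a mean of at least 1 FPKM and were taken as expressed; SOX4, at 0.751 FPKM, was the exception. With a minimum of 0.5 FPKM in each control library instead, all 9 counted as expressed. Between groups, 7 of the 9 were lower with miR-204-5p mimics, FOXC1 was higher and SOX4 did not pass the test (limma on log2(FPKM + 1), Benjamini-Hochberg adjusted p under 0.05 over all 14959 genes). Over all genes the same test called 16.8% lower and 23.9% higher, and among the 1261 genes of the table whose longest 3'UTR holds an 8mer it called 33.5% lower and 13.3% higher. The shares were 25.5% and 16.6% for genes whose best match is a 7mer-m8, and 22.3% and 19.1% for a 7mer-A1. Among the 11389 genes with a mean of at least 1 FPKM with control mimics they were 20.6% and 26.8%. For the 7 lower genes each mimic library had a lower value than each control library, an arrangement found for 22.7% of all genes. In such RNA from whole cultures, fewer cells with an mRNA and less of it per cell cannot be told apart. The median log2 difference of the 9 genes was −0.83, and that of all genes was 0.03. For each of the 8 genes whose groups do not overlap, the two-sided exact permutation p was 0.1, the smallest that 3 libraries against 3 can give.

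**Figure D2:**
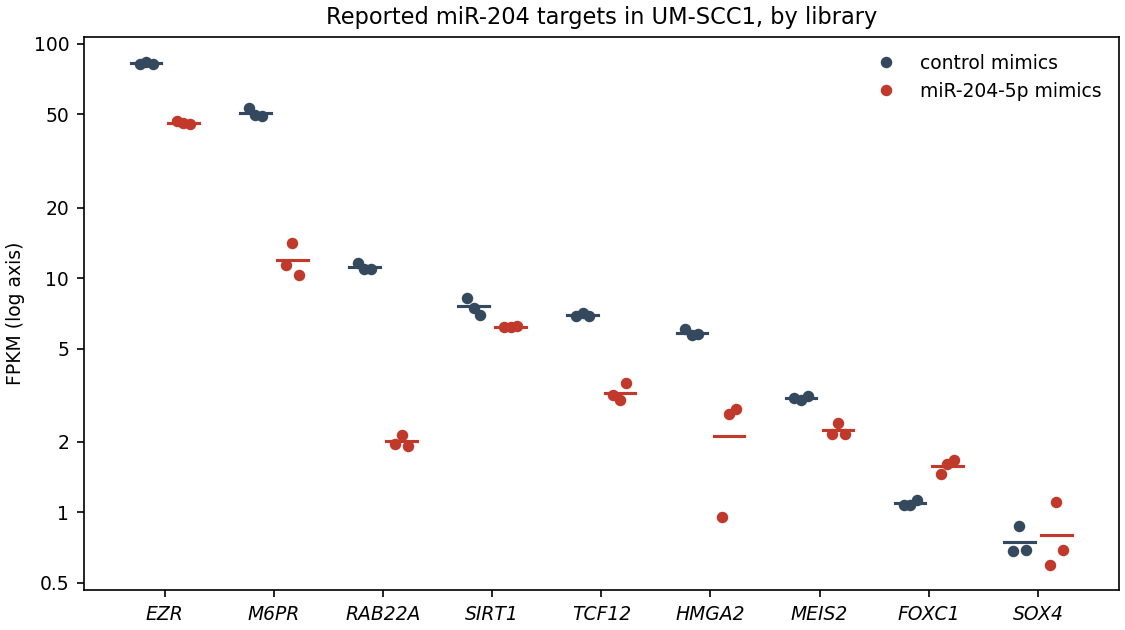
FPKM (log axis) of the 9 measured genes in each library. Points are control libraries (dark) or mimic libraries (red), 3 each, and bars are group means. The red points lie below the dark ones for EZR, M6PR, RAB22A, SIRT1, TCF12, HMGA2 and MEIS2, above them for FOXC1, and among them for SOX4.

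Per length, EZR was the most abundant of the 9 mRNAs with control mimics (82.6 FPKM), followed by M6PR (50.6), RAB22A (11.1), SIRT1 (7.56), TCF12 (6.94), HMGA2 (5.85), MEIS2 (3.08), FOXC1 (1.09) and SOX4. SIRT1 and TCF12 overlapped in their libraries, while all other neighbours in this order were apart. With miR-204-5p mimics RAB22A went from position 3 to position 7, at 2.01 FPKM, where its libraries lay within the range of HMGA2. EZR and M6PR kept the top of the order.

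RAB22A and M6PR, both of the endosomal system, had the largest differences among the members. RAB22A encodes a small GTPase of early endosomes that acts in recycling and sorting. Its FPKM was 1.96, 2.14 and 1.93 in the 3 mimic libraries and 11.5, 11.0 and 10.9 in the 3 control libraries. The libraries of a group lay close together and the groups were far apart, so that the control mean was 5.54 times the mean with miR-204-5p mimics (log2 difference −2.01, standard error 0.0581, limma adjusted p = 1.53e-05). Among all genes of the table this was rank 3 from the most negative log2 difference. RAB22A (ENSG00000124209, plus strand of chromosome 20, 58309696 to 58367507) also carried the most sites within its listed transcript, 5, all in exon 7. Sites 1 to 3 start 215, 328 and 358 bases after the stop codon, and the other two 3241 and 3927 bases after it.

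M6PR encodes the cation-dependent mannose 6-phosphate receptor, which carries newly made lysosomal enzymes from the Golgi to endosomes. It was measured at 11.3, 14.1 and 10.3 FPKM with miR-204-5p mimics and at 53.1, 49.6 and 49.2 FPKM with control mimics. No library of one group came near the other, and the control mean was 4.25 times higher (log2 difference −2.01, standard error 0.105, limma adjusted p = 6.98e-05). M6PR (ENSG00000003056, minus strand of chromosome 12) is listed with a transcript of 650 bases and 3 exons, from 8940363 to 8943420. In GENCODE 29 this short transcript covers site 2, within what is annotated there as its coding part, and not site 1. Whether the FPKM of M6PR covers the gene or this transcript is not given in the sources used here. Exons of M6PR also overlap PHC1 on the other strand, and the sources used here do not say whether the counting used strand. PHC1 differed in the other direction, with 7.73 ± 0.539 FPKM (SD, n = 3) with control mimics and 12.2 ± 0.875 FPKM with miR-204-5p mimics (log2 difference 0.59, limma adjusted p = 0.00114).

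EZR, the most abundant of the 9 mRNAs, was lower by a smaller ratio and with little spread. It encodes ezrin, which ties membrane proteins to cortical actin. Its FPKM was 46.8, 45.9 and 45.6 with miR-204-5p mimics and 82.3, 83.7 and 81.9 with control mimics. The libraries of a group lay close together (coefficient of variation 1.38% in mimic and 1.14% in control libraries), and the control mean was 1.79 times higher (log2 difference −0.83, standard error 0.0311, limma adjusted p = 3.09e-05). EZR (ENSG00000092820, minus strand of chromosome 6, 158765741 to 158818227) holds 1 site in its longest 3'UTR, the 8mer in exon 13, 719 bases after the stop codon.

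HMGA2 encodes an AT-hook protein that bends DNA, made in the embryo and again in many tumours, and its mRNA is a classic target of let-7. It had 0.954, 2.64 and 2.77 FPKM with miR-204-5p mimics and 6.09, 5.69 and 5.77 FPKM with control mimics. All 3 mimic libraries were below the controls, but replicate 1 lay far below the other two, and the coefficient of variation in this group was 47.7%, against 3.60% in the controls. The control mean was 2.76 times higher (log2 difference −1.20, standard error 0.247, limma adjusted p = 0.00948). Without mimics replicate 1 the log2 difference was −0.89 (limma adjusted p = 0.00107). HMGA2 (ENSG00000149948, plus strand of chromosome 12, 65824131 to 65966295) is listed with a transcript that holds site 6 only, 665 bases into its 3'UTR in exon 5. The other 5 sites belong to the 3'UTR of another protein-coding transcript and lie outside the listed exons. That 3'UTR is 7421 bases long.

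Among the transcription and chromatin regulators, TCF12, MEIS2 and SIRT1 were lower as well. TCF12 encodes an E protein, a basic helix-loop-helix factor that pairs with tissue-specific partners. Its values were 3.16, 3.01 and 3.55 FPKM with miR-204-5p mimics and 6.88, 7.09 and 6.86 FPKM with control mimics. The groups were well apart, and the control mean was 2.14 times higher (log2 difference −0.91, standard error 0.0666, limma adjusted p = 0.000192). TCF12 (ENSG00000140262, plus strand of chromosome 15, 56918623 to 57288514) carries 3 sites, starting 400, 542 and 940 bases after the stop codon, all within the listed transcript.

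MEIS2 encodes a homeodomain protein of the TALE class, a partner of PBX and HOX proteins that is a known miR-204 target in the developing lens. It was at 2.16, 2.41 and 2.16 FPKM with miR-204-5p mimics and at 3.09, 3.01 and 3.13 FPKM with control mimics. The gap between groups was larger than the spread within them, and the control mean was 1.37 times higher (log2 difference −0.33, standard error 0.0604, limma adjusted p = 0.00585). MEIS2 (ENSG00000134138, minus strand of chromosome 15, 36889204 to 37099885) is the only one of the 10 genes without an 8mer in the longest 3'UTR; its 2 sites are of class 7mer-A1.

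SIRT1 encodes an NAD-dependent protein deacetylase. Its FPKM was 6.18, 6.16 and 6.24 with miR-204-5p mimics and 8.23, 7.48 and 6.99 with control mimics. The groups did not overlap, but the controls were spread over more than the gap between the groups, and the control mean was 1.22 times higher (log2 difference −0.25, standard error 0.0659, 95% interval −0.41 to −0.09, limma adjusted p = 0.0236). The call was lost when any library other than control replicate 3 was left out, with a log2 difference of −0.30 to −0.19 and a limma adjusted p of 0.0196 to 0.0666 over the 6 fits that leave out 1 library. The remaining 6 lower genes kept their call in all 6 of these fits. SIRT1 (ENSG00000096717, plus strand of chromosome 10, 67884669 to 67918390) has its 8mer 384 bases after the stop codon.

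FOXC1 and SOX4, both intronless in their listed transcripts and both with an 8mer and a 7mer-m8, were not lower. FOXC1 encodes a forkhead factor of mesenchyme and eye development. It rose from 1.07, 1.08 and 1.13 FPKM with control mimics to 1.46, 1.61 and 1.68 FPKM with miR-204-5p mimics. Each mimic library had a higher value than each control library, an arrangement found for 30.9% of all genes, and the mean was 1.44 times higher (log2 difference 0.30, standard error 0.0565, limma adjusted p = 0.00655). This call held in each fit that left out 1 library, with a log2 difference of 0.27 to 0.34. At the lower of the inferred depths these values stand for about 59.2 to 103 fragments per library. FOXC1 (ENSG00000054598) spans 1609972 to 1613897 of chromosome 6, plus strand.

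SOX4 encodes a SoxC factor with an HMG box, active in progenitor cells and often raised in carcinomas. It was low in all libraries, at 0.596, 1.11 and 0.689 FPKM with miR-204-5p mimics and 0.685, 0.877 and 0.691 FPKM with control mimics. The groups overlapped, and the log2 difference was 0.03 (95% interval −0.24 to 0.30, limma adjusted p = 0.857). Its sign changed with the library left out, from −0.09 without mimics replicate 2 to 0.11 without mimics replicate 1, and it was −0.03 after quantile normalization. At the lower of the inferred depths about 45.6 to 104 fragments per library stand behind these values. The 95% interval leaves room for a difference in either direction, and the smallest detectable difference was not worked out. SOX4 (ENSG00000124766) spans 21592768 to 21598619 of chromosome 6, plus strand.

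**Figure D3:**
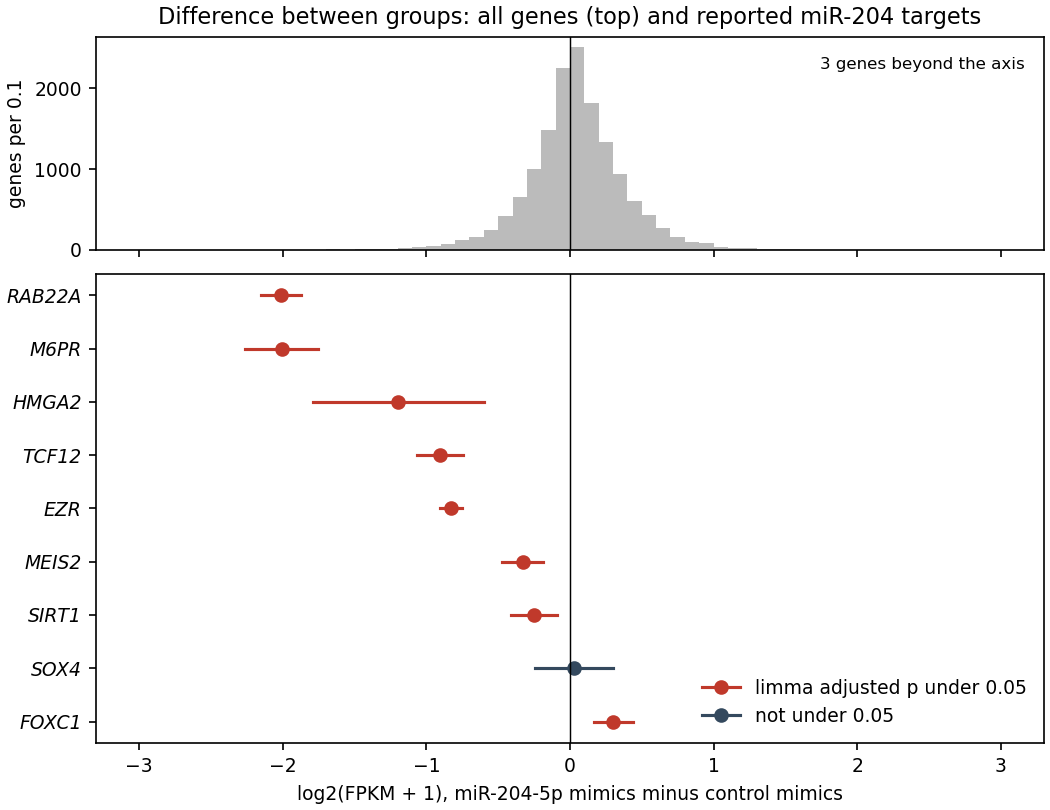
Differences in log2(FPKM + 1) between miR-204-5p mimics and control mimics. The upper part is a histogram of all 14959 genes in steps of 0.1, with 3 genes beyond the axis. The lower part gives each of the 9 genes with its 95% interval from limma, red where the adjusted p was under 0.05. RAB22A and M6PR lie at −2.01 each, SOX4 spans 0 and FOXC1 lies at 0.30.

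RAB22A and HMGA2, with 5 sites each in the longest 3'UTR, and TCF12, with 3, had log2 differences of −2.01, −1.20 and −0.91, and they were among the 4 most negative of the 9 together with M6PR. The 5 sites of HMGA2 lie outside its listed transcript, which holds 1 other, and the listed 3'UTR of M6PR holds none. Whether the number of sites matters was not tested. Genes with 1 or 2 sites ranged from −2.01 to 0.30. EZR and SIRT1 each held 1 8mer, with log2 differences of −0.83 and −0.25. SOX4, FOXC1 and MEIS2 each held 2 sites, with 0.03, 0.30 and −0.33, and M6PR, also with 2, was at −2.01. Since the log2(FPKM + 1) scale understates the change of low genes, the ratios of the means serve beside it: 0.180 for RAB22A, 0.235 for M6PR, 0.362 for HMGA2, 0.467 for TCF12, 0.558 for EZR, 0.729 for MEIS2, 0.818 for SIRT1, 1.06 for SOX4 and 1.44 for FOXC1.

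Close relatives of the 10 genes were called about as often as genes in general. Of 31 relatives listed from general knowledge, 29 could be analysed, and 5 were lower, 6 were higher and 18 did not pass the test, with a median log2 difference of 0.01, beside 16.8% lower and 23.9% higher over all genes. RDX, which encodes the ezrin relative radixin, rose from 12.5 ± 0.969 to 17.5 ± 1.91 FPKM (SD, n = 3; log2 difference 0.45, limma adjusted p = 0.00856). MSN, which encodes moesin, the third member of that family, had 96.8 ± 1.49 and 97.7 ± 1.08 FPKM (log2 difference 0.01, 95% interval −0.06 to 0.09). Neither RDX nor MSN held a seed match of 7 bases or more. RAB31, the closest relative of RAB22A, rose from 20.6 ± 0.792 to 27.2 ± 1.05 FPKM (log2 difference 0.38, limma adjusted p = 0.00123), and RAB5A, RAB5B, RAB5C and RAB21 did not pass the test. HMGA1, at 397 ± 1.79 and 369 ± 11.2 FPKM, did not pass it either (limma adjusted p = 0.0629). PBX2, a partner of MEIS proteins, fell from 40.8 ± 1.51 to 26.6 ± 0.428 FPKM (log2 difference −0.60, limma adjusted p = 0.000148) without a match of 7 bases. TCF3, another E protein, differed by −0.24 (limma adjusted p = 0.0208), a call lost without mimics replicate 1, control replicate 1 or control replicate 3. Without mimics replicate 1, 3 relatives were lower.

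Genes that work with M6PR were called in both directions. Of 17 genes of mannose 6-phosphate sorting, listed from general knowledge, 6 were lower, 3 were higher and 8 did not pass the test. Their median log2 difference was 0.01. Over all genes 16.8% were lower and 23.9% higher, so there higher calls were the more frequent. IGF2R, counted among the relatives and again among the further targets below, encodes the larger, cation-independent mannose 6-phosphate receptor. It had 8.08, 8.38 and 9.04 FPKM with miR-204-5p mimics and 21.3, 20.9 and 20.1 FPKM with control mimics. It was lower in each mimic library than in any control (log2 difference −1.20, standard error 0.0537, limma adjusted p = 5.17e-05) and holds an 8mer. SORT1, which encodes sortilin, another sorting receptor of the Golgi, had 11.0, 11.9 and 10.9 FPKM against 36.6, 35.8 and 35.0 FPKM (log2 difference −1.58, standard error 0.0462, limma adjusted p = 1.53e-05) and holds 2 sites. M6PR, IGF2R and SORT1 come from different lists and were set side by side after their values were seen.

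NAGPA, the enzyme that uncovers the mannose 6-phosphate tag, fell from 11.4 ± 0.481 to 6.31 ± 0.486 FPKM (SD, n = 3; log2 difference −0.77, limma adjusted p = 0.000325). Of the adaptors, GGA2 (log2 difference −0.48, limma adjusted p = 0.000343), AP1S3 (−0.75, limma adjusted p = 0.000291) and AP1S1 (−0.997, limma adjusted p = 0.0178) were lower. AP1S1 was uneven with miR-204-5p mimics, at 38.6, 19.2 and 35.8 FPKM, and its call was lost without control replicate 1 or control replicate 3 (limma adjusted p up to 0.0528). GGA1, GGA3, AP1B1, AP1M1, AP1S2, GNPTG and the retromer subunits VPS35 and VPS26A did not pass the test, and VPS26B, another retromer subunit, was lower (−0.21, limma adjusted p = 0.0119). Of these lower genes, GGA2 and AP1S1 hold an 8mer and NAGPA a 7mer-m8. Seed matches did not follow the calls throughout: VPS35 holds an 8mer and AP1M1 a 7mer-m8, whereas AP1S3 and VPS26B hold no match of 7 bases. The 3 higher genes were GNPTAB, AP1G1 and VPS29 (log2 differences 0.20, 0.37 and 0.35), with limma adjusted p-values from 0.0346 to 0.0431. Each of these 3 calls was lost without mimics replicate 2, control replicate 1 or control replicate 3, those of GNPTAB and AP1G1 also without mimics replicate 3, and those of GNPTAB and VPS29 also without control replicate 2.

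**Figure D4:**
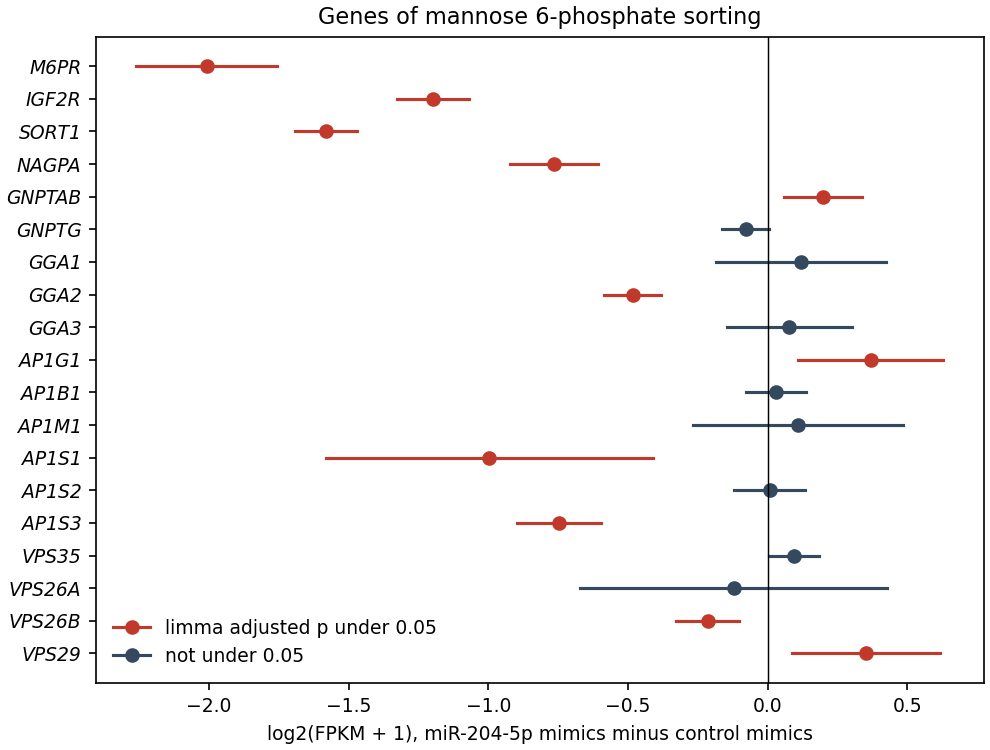
Differences in log2(FPKM + 1) between miR-204-5p mimics and control mimics for M6PR, IGF2R and the 17 listed genes of mannose 6-phosphate sorting, with 95% intervals from limma, red where the adjusted p was under 0.05. The receptors M6PR, IGF2R and SORT1 lie furthest to the left, from −2.01 to −1.20.

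Over all 29 partners that could be analysed, of 30 listed, 12 were lower, 5 were higher and 12 did not pass the test (median log2 difference −0.08), beside 16.8% lower and 23.9% higher over all genes. The list also holds 3 genes of early endosomes, 2 ezrin scaffolds, the 4 ID genes and 4 genes of the let-7 and HMGA2 axis. Of the RNA-binding IGF2BP proteins, which share let-7 control with HMGA2, IGF2BP1 fell from 9.11 ± 0.482 to 5.83 ± 0.322 FPKM (SD, n = 3; log2 difference −0.57, limma adjusted p = 0.000811) and IGF2BP2 from 55.6 ± 0.405 to 38.9 ± 0.240 FPKM (−0.50, limma adjusted p = 0.000105). IGF2BP3 rose from 10.1 ± 0.371 to 17.6 ± 0.767 FPKM (log2 difference 0.74, limma adjusted p = 0.000157), although it has a 7mer-A1. Of the 10 partners with a match of 7 bases or more, 7 were lower and 1 was higher. Of the 3973 genes of the table with such a match, 1073 were lower and 651 higher. ID1 and ID3, inhibitors of E proteins such as TCF12, were lower (log2 differences −0.28 and −0.40, limma adjusted p = 0.00464 and 0.00692) without a match of 7 bases, and ID2 and ID4 did not pass the test. Of the ezrin scaffolds, SLC9A3R1 differed by −0.25 (limma adjusted p = 0.0324), a call lost without any of the 3 mimics libraries, and of the early endosome genes RBSN was lower (−0.32, limma adjusted p = 0.00788). EEA1 was called higher by a narrow margin (0.13, limma adjusted p = 0.0498), and only 2 of 14 alternative settings kept that call. Among the fits that leave out 1 library, it was kept only without mimics replicate 3.

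A further 25 genes that general knowledge counts among published targets of miR-204 or miR-211 were set beside the 10. IGF2R, AP1S1 and MEIS1 stand in this list as well as in another. The list was chosen with earlier results of these data known, so its counts are a description and not a test. Of the 21 that could be analysed, 11 were lower, 2 were higher and 8 did not pass the test, with a median log2 difference of −0.34. Over all genes 16.8% were lower and 23.9% higher, and of the 3973 genes with a seed match of 7 bases or more 1073 were lower and 651 higher. The 11 lower genes all held a seed match of 7 bases or more, as did 19 of the 21. TGFBR2, a receptor subunit for TGF-beta, was at 8.24, 8.66 and 7.42 FPKM with miR-204-5p mimics and 23.7, 23.4 and 22.4 FPKM with control mimics (log2 difference −1.41, limma adjusted p = 4.70e-05). EPHB2, an ephrin receptor, fell from 3.35 ± 0.222 to 1.23 ± 0.220 FPKM (SD, n = 3; log2 difference −0.97, limma adjusted p = 0.000444). BCL2L2, which opposes apoptosis, varied in the controls (19.99, 6.79 and 19.3 FPKM) and with miR-204-5p mimics (6.09, 2.81 and 1.39 FPKM) and overlaps BCL2L2-PABPN1 on the same strand, and their reads cannot be told apart here. Its log2 difference was −1.90 (limma adjusted p = 0.0260), and the call was lost without mimics replicate 2 or 3 or control replicate 1 or 3. The 2 higher genes were MCL1 (log2 difference 0.27, limma adjusted p = 0.0147), with 3 sites, and RUNX2 (0.52, limma adjusted p = 0.0325), with 4 sites. RUNX2 was at 0.322 ± 0.0396 FPKM (SD, n = 3) in the controls, and its call was lost without any library other than mimics replicate 3.

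**Figure D5:**
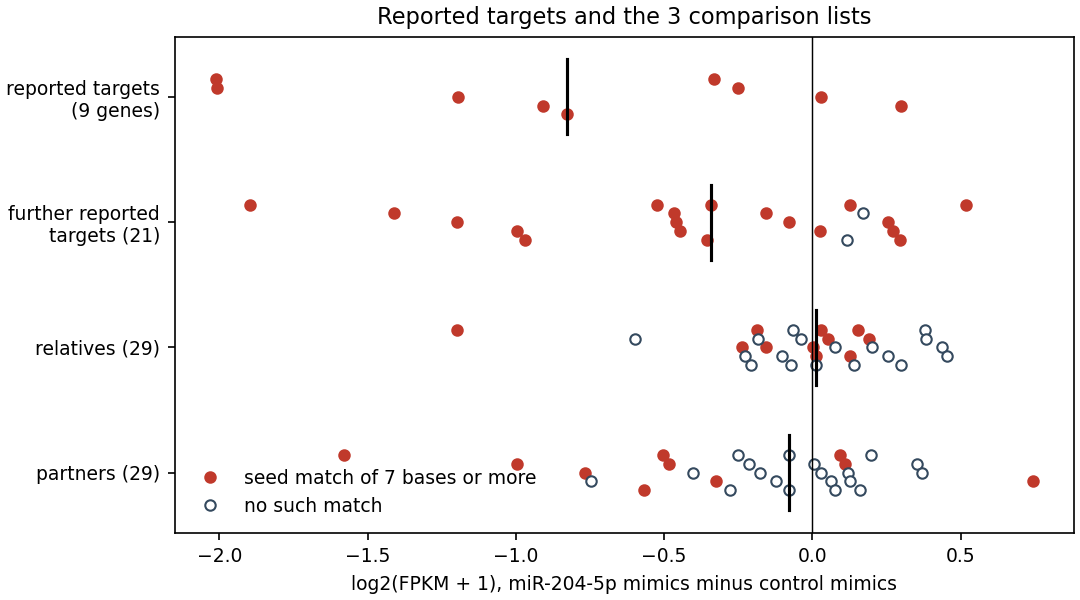
Differences in log2(FPKM + 1) between miR-204-5p mimics and control mimics for the 9 measured targets, 21 further published targets, 29 relatives and 29 partners. Filled points are genes with a seed match of 7 bases or more in the longest 3'UTR, open points are genes without, and bars are medians, at −0.83, −0.34, 0.01 and −0.08.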

How the data were processed

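RNA was sequenced from 3 mimic and 3 control libraries of UM-SCC1 cells, made with an Illumina TruSeq kit. The FPKM values were computed by the authors. Their processing notes name HISAT2, StringTie and hg38, without versions. The table lists 1 transcript per gene; whether a value covers the gene or that transcript is not given in the sources used here. Columns with the authors' own edgeR log ratios, p-values and FDR were not used.

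All 14959 genes were fitted without filter or rescaling on log2(FPKM + 1) by limma 3.58.1 under R 4.3.3, using lmFit and a trended eBayes, two-sided, with Benjamini-Hochberg adjustment at 0.05, since counts for the study's edgeR test were not at hand. On simulated data of 14959 genes, 184 of 200 genes changed by 1 on the log2 scale were recovered, with 8 false calls. The changed genes were drawn from those with a mean log2(FPKM + 1) above 1 with control mimics, which leaves out genes as low as SOX4. Of the listed transcripts, GENCODE 29 holds 14951, of which 14844 have identical coordinates. Depth was inferred from genes with 1 transcript: whole multiples of the step (within 0.05 of it) made up 26.0% to 32.0% of low values, against 6.38% to 8.37% at a wrong step. A step 0.5 times as large gave 30.1% to 34.7%, so the depth may be the higher of the values given. Python 3.11.15 was used for the other steps.

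The named genes were the 10 members, the genes of the 3 lists and genes overlapping a member or a named gene; PHC1 was named for its overlap after its values were seen. The members and lists were chosen with earlier results of these data known. Of the list members, those given one by one were chosen after their values were seen.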

Additional observations from a re-analysis of the deposited data

How the results depend on the processing

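The replicate numbers did not pair the libraries: deviations of same-numbered libraries correlated at −0.04, −0.02 and −0.11, and in none of the 3 pairs was the same number the best match. With the replicate block, 5096 genes were called instead of 6098, SIRT1 stayed at −0.25 but lost its call (limma adjusted p = 0.0563), the further targets had 1 higher gene instead of 2 and the partners 1 instead of 5.

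RAB22A, M6PR, EZR, TCF12, MEIS2, HMGA2 and FOXC1 kept direction and call under all 14 alternatives, 1 of which (pseudocount 0.01) was added after the data were seen. Leaving out 1 library gave −0.30 to −0.19 for SIRT1, 1 to 3 higher further targets, 3 to 6 lower relatives and 1 to 4 higher partners. The log2 difference of SOX4 turned negative after quantile normalization (−0.034) and without mimics replicate 2 (−0.091), within a range of −0.09 to 0.11 when 1 library was left out. SOX4 has no value at a mean FPKM of at least 1, where 1 further target was higher. Higher partners numbered 2 with equal sums, 3 with equal medians and 3 with quantile normalization. The causes were not tested. With the 3'UTR of the listed transcript, 8 of the 9 genes that have one held a match, and M6PR did not. CREB5 has no listed transcript. No count test was run, and precision at low FPKM is limited by the inferred depth.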
